A study of Mus musculus with 8 samples.

Results

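The genes described here are 36 mouse genes of the DNA damage response and of recombination repair, taken by name from a working list that joined break-sensing kinases, checkpoint kinases, BRCA and Fanconi anaemia proteins, helicases, and end-joining and single-strand break repair factors. They were looked up by the gene name the authors gave each ac4C peak. A peak was found for 34 of the 36, in 229 of 75481 peaks, while Bard1 and Lig4 had none under their names or synonyms. N4-acetylcytidine (ac4C) is an acetylated cytidine that NAT10 writes on RNA, and acRIP-seq pulls down RNA fragments with an ac4C antibody and compares them with the input RNA. The study used cultured mouse female germline stem cells (FGSCs), an ovary-derived line that served as the control group, and germ cells differentiated from them (Dif-FGCs) for 3 days. Per the methods, differentiation took place on granulosa cells in medium with serum, basic fibroblast growth factor, retinoic acid and BMP4, so RNA of granulosa cells could be present in the Dif-FGC samples alone. Each state had 2 immunoprecipitated (IP) libraries, here called FGSC 1, FGSC 2, Dif-FGC 1 and Dif-FGC 2, and 2 input libraries, and each IP library had 1 peak list. No agent or genotype other than this differentiation separated the groups.

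DNA breaks are sensed by the MRN complex, which recruits the large kinase ATM, and by the Ku proteins, which recruit DNA-PKcs. The related kinase ATR acts with its partner ATRIP. These kinases and the checkpoint kinases CHEK1 and CHEK2 slow the cell cycle, and 53BP1 and MDC1 mark the chromatin around the break. Homologous recombination then restores the sequence from an intact copy through the BRCA proteins, and the same machinery serves the crossovers of meiosis, which germ cells enter as they differentiate.

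The FGSC lists held 22791 and 16290 peaks and the Dif-FGC lists 22480 and 13920, always in the order of replicates 1 and 2, over 11417 genes in all. Every peak has a fold over input (a linear ratio) and an authors' false discovery rate, and for the repair genes that rate lay between 51.03% and 100%, so none of their 229 peaks would pass a 5% limit. Of all 75481 peaks, 1 did. A list holds no read counts, so depth is unknown, and a missing peak shows neither missing ac4C nor missing RNA. In such bulk lists fewer cells of a type and less RNA per cell cannot be told apart. Peaks were found at 4 of 10 germ cell markers, and at 2, 2, 9 and 3 of 14 granulosa cell markers, FGSC libraries first. The part of granulosa RNA in the differences between the states was not tested.

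The repair genes had 59 and 64 peaks in the FGSC libraries 1 and 2, and 70 and 36 in the Dif-FGC libraries 1 and 2. These were 0.259%, 0.393%, 0.311% and 0.259% of the lists in the same order. Dif-FGC 2, the shortest list, held the fewest repair gene peaks, but their share of it equalled that in FGSC 1, and the states overlapped. The number of repair genes with a peak was 22, 26, 25 and 14, or 64.7%, 76.5%, 73.5% and 41.2% of the 34, beside 79.3%, 70.1%, 74.9% and 56.7% of all 11417 genes. Their peaks were weak for their lists, least so in Dif-FGC 2: the median fold was 7.14, 4.40, 5.73 and 7.79, against 10.12, 6.92, 7.06 and 7.92 over all peaks. Ranked by fold from the top of its list, the median repair gene peak stood at 68.2%, 72.5%, 60.5% and 50.9%. Only 5, 5, 4 and 1 of these peaks were in the top 10% of a list. They were also shorter, with median lengths of 110, 105.5, 136 and 168 bp against 158, 164, 165 and 210 bp.

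**Figure D1:**
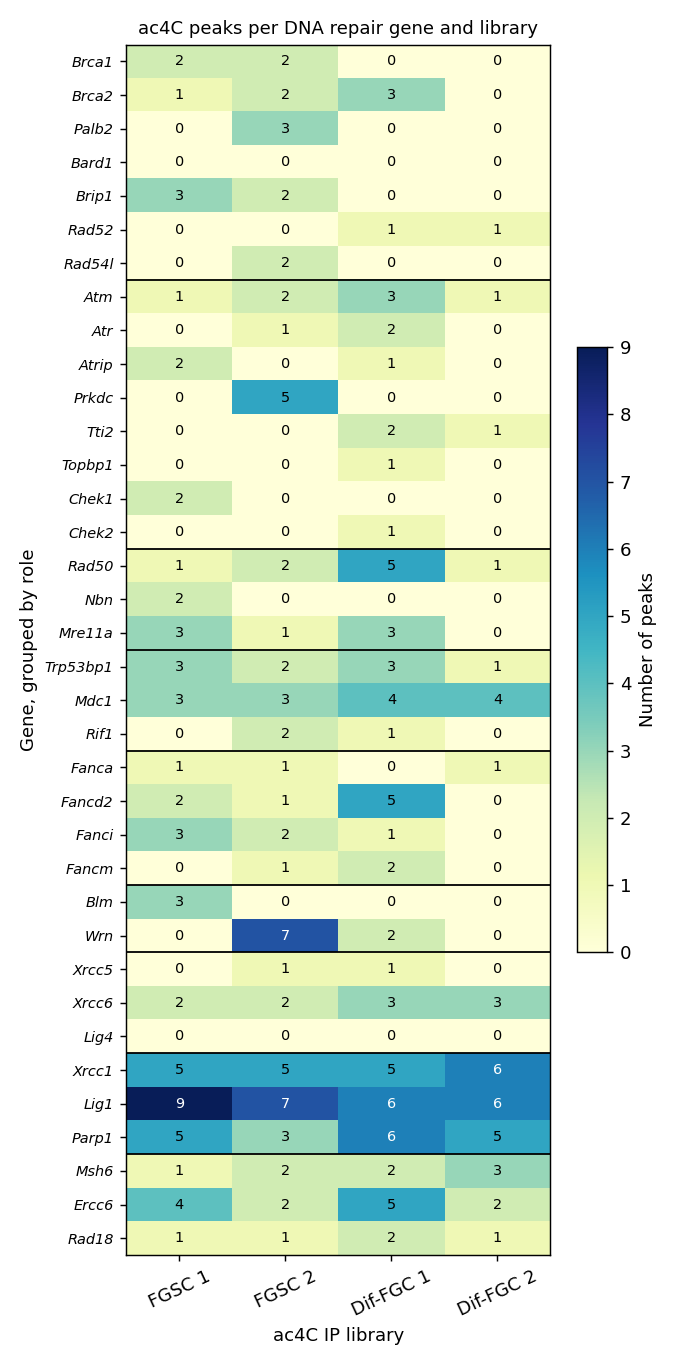
Number of ac4C peaks (colour and printed number) of each of the 36 repair genes (rows, grouped by role, black lines between roles) in each of the 4 IP libraries (columns). Lig1, Xrcc1 and Parp1 hold 28, 21 and 19 peaks over the 4 libraries, and Bard1 and Lig4 hold none.

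Peaks of different libraries that overlapped by at least 1 bp were joined to a locus, which gave 144 loci for the repair genes and 39860 in all. Of the 34 genes, 11 had a peak in all 4 libraries (32.4%; all genes 43.5%). These were Atm, Ercc6, Lig1, Mdc1, Msh6, Parp1, Rad18, Rad50, Trp53bp1, Xrcc1 and Xrcc6. Peaks in both FGSC libraries and in no Dif-FGC library were found for Brca1 and Brip1, 2 genes (5.88%; all genes 5.25%), and the opposite for Rad52 and Tti2, also 2 genes (5.88%; all genes 1.62%). Counted by locus, 15 of 144 loci were in all 4 libraries (10.4%; all loci 15.5%). Another 5 were in both FGSC libraries alone (3.47%; all loci 3.61%) and 7 in both Dif-FGC libraries alone (4.86%; all loci 3.65%). Most repair gene loci, 101 of 144 (70.1%), were in 1 library only, while this share was 54.7% over all loci. The repair genes were listed with earlier results of these data known, so none of these shares was tested.

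The state counts rested on single lists. With FGSC 1, FGSC 2 or Dif-FGC 1 left out and the other library standing for its state, the repair genes of FGSCs alone numbered 5, 5 and 6 in place of 2, while over all genes they numbered 1267, 1623 and 1524 in place of 599. Without Dif-FGC 2 the repair genes of Dif-FGCs alone numbered 4 in place of 2 (all genes 953 in place of 185). The repair gene loci of FGSCs alone went from 5 to 39 without FGSC 1 and to 34 without FGSC 2, and those of the series from 1439 to 5782 and 9815. Those of Dif-FGCs alone went from 7 to 11 without FGSC 1 and to 43 without Dif-FGC 2, and in the series from 1453 to 3365 and 8994. Of 58 repair gene loci in FGSC 1 and 63 in FGSC 2, 22 were in both. These were 37.9% and 34.9% of the repair gene loci of each, against 41.6% and 58.3% over all loci. Of 70 in Dif-FGC 1 and 35 in Dif-FGC 2, 29 were in both, or 41.4% and 82.9%, against 46.9% and 75.3%. FGSC 1 shared 22 repair gene loci with Dif-FGC 2, as many as with its own replicate, and over all loci its shares were also alike (41.9% with Dif-FGC 2 and 41.6% with FGSC 2).

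The genes of the BRCA complexes and of strand exchange held 3 of the 4 genes whose peaks lay in both libraries of 1 state alone, and no member of this group had a peak in all 4 libraries. Of its 7 genes 6 had peaks, namely Brca1, Brca2, Palb2, Brip1, Rad52 and Rad54l. Genes of FGSCs alone made up 33.3% of these 6 and genes of Dif-FGCs alone 16.7%, beside 5.25% and 1.62% of all genes. Shares of so few genes were not tested. The Fanconi anaemia genes and the RecQ helicases likewise included no gene with peaks in all 4 libraries. The tumour suppressor Brca1, a ubiquitin ligase subunit that directs resection and recombination, had 2 peaks in FGSC 1, 2 in FGSC 2 and none in either Dif-FGC library. Its 4 peaks lay at 4 different places: chr11:101517300-101517442 (fold 5.95) and chr11:101532098-101532159 (5.79) in FGSC 1, and chr11:101508033-101508230 (3.53) and chr11:101551769-101551955 (4.92) in FGSC 2. Brca1 therefore counts as an FGSC gene although no single locus of it recurred, and its best peaks ranked at 78.1% and 66.5% of their lists.

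Brip1, a helicase that binds BRCA1, had 3 peaks in FGSC 1 and 2 in FGSC 2, and a locus that both FGSC libraries shared, chr11:86198917-86198994, with fold 13.33 and 9.85. Brca2, a mediator of homologous recombination, had an FGSC locus at its start, chr5:150522621-150523090, with fold 16.79 and 10.70. Dif-FGC 1 held 3 other Brca2 peaks further along the gene, with fold 8.52, 27.92 and 11.82, and FGSC 2 another at 3.07. The Brca2 places thus differed between the FGSC lists and Dif-FGC 1, while the gene itself kept peaks in 3 of the 4 libraries. Dif-FGC 2 had no Brca2 peak, so no Dif-FGC place of it recurred. Palb2, which bridges BRCA1 and BRCA2, had 3 peaks in FGSC 2 alone with fold 5.64, 3.46 and 2.27. Rad54l, a motor protein of strand invasion, had 2 there with 2.75 and 2.49.

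Rad52, an annealing protein, had 1 locus and no other peak, chr6:119902703-119902835, with fold 57.40 and 8.06 in Dif-FGC 1 and 2. Its rank differed widely between these replicates, at 4.17% and 49.1% from the top. The first 30 bases of the peaks at the starts of these genes follow, since the loci of Brca2 and Rad52 belonged to opposite states and began at or close to a transcript start. They come from RefSeq (GRCm38.p6) in the sense of transcription, with the cytidines of any CNNCNNCNN run in capitals. That run spaces its cytidines by a pair of free bases, the spacing of the motif known for ac4C.
Brca2, chr5:150522621-150522650, plus strand: gggcttttcgcgggagcgggagccgtgagg
Rad52, chr6:119902703-119902732, plus strand: acggcctttccttctgtttttctttgggcg
Brca1, chr11:101551926-101551955, minus strand: gttccgaaaggctagcgctaggcgccaagc
None of the 3 windows holds such a run, as the lower case shows. The Brca2 and Brca1 windows begin at the RefSeq start, where the peak also has its limit, and the Rad52 window begins at base 6 of the transcript.

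The kinases, their partners and the checkpoint kinases comprised 8 genes, all with peaks, and 25 peaks in all: 5 and 8 in the FGSC lists, and 10 and 2 in the Dif-FGC lists. Tti2, a subunit of the TTT complex that stabilises ATM, ATR, DNA-PKcs and mTOR, had the strongest peak of the 36 genes in the Dif-FGC libraries. Its locus chr8:31150316-31151499, which begins at the lower limit of the RefSeq gene, had fold 158.35 in Dif-FGC 1 and 102.35 in Dif-FGC 2. It ranked 0.948% and 1.36% from the top of these lists, and neither FGSC list had a Tti2 peak. Tti2 is on the list with these values known, so its place is a description. A second Tti2 peak, in Dif-FGC 1 alone (fold 3.89), lies where Mak16 overlaps the gene.

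Atm, the apical kinase of the response to breaks, had 1, 2, 3 and 1 peaks in the 4 lists (here and in the following, FGSC 1 and 2, then Dif-FGC 1 and 2), and its best peaks ranked at 86.8%, 69.5%, 51.8% and 99.4%. Although Atm counts among the genes with peaks in all libraries, 5 of its 6 loci were in 1 library. The other, chr9:53443992-53444078, was in FGSC 2 (4.66) and Dif-FGC 2 (2.44), 1 library of each state. Atr, the kinase of stalled forks, had a locus in FGSC 2 (3.92) and Dif-FGC 1 (11.98), and its partner Atrip one in FGSC 1 (5.69) and Dif-FGC 1 (5.44). The Atrip peaks also overlap the readthrough gene Atrip-trex1.

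The remaining kinase genes were in 1 library each. Prkdc, which encodes DNA-PKcs and is the longest of the genes at 205 kb, had 5 peaks in FGSC 2 with fold from 2.59 to 7.70. Chek1, the effector of ATR, had 2 in FGSC 1 with 5.73 and 7.47. Chek2, the effector of ATM, and Topbp1, an activator of ATR, had 1 each in Dif-FGC 1, with 4.18 and 3.26. No kinase or checkpoint gene had a locus in more than 2 libraries.

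**Figure D2:**
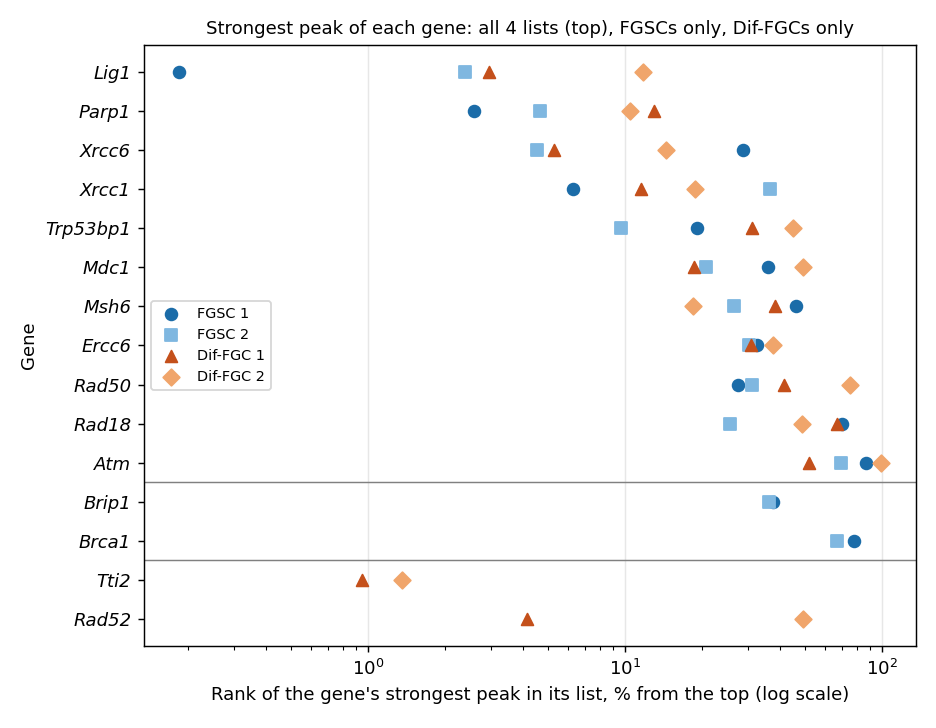
Rank of the strongest peak of a gene in its list, in percent from the top (horizontal, log scale), for the 11 repair genes with peaks in all 4 libraries and the 4 genes with peaks in both libraries of 1 state alone; each point is 1 library. Lig1 stands at 0.184% in FGSC 1 and Tti2 at 0.948% and 1.36% in the Dif-FGC libraries, while Atm and Brca1 lie beyond 50% in every library that has them.

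Of the MRN complex, which tethers and trims broken ends, all 3 genes had peaks, 18 in all. Rad50, its long coiled-coil subunit, had a locus at its upper limit, chr11:53706927-53707319, with fold 17.67 in FGSC 1 and 8.52 and 5.13 in the Dif-FGC lists. FGSC 2 lacked this locus and shared another with Dif-FGC 1, chr11:53669630-53669757, with fold 11.64 and 7.01. Mre11a, the nuclease, had 1 locus of 6 in more than 1 library (FGSC 1 4.11, Dif-FGC 1 3.53). Nbn had 2 peaks in FGSC 1 alone, with fold 7.78 and 12.27.

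Of the 3 chromatin mediators that gather at breaks, Trp53bp1 and Mdc1 had peaks in every library. Trp53bp1, which encodes 53BP1 and shields ends from resection, lies on the minus strand with its upper RefSeq limit at chr2:121296354. Its locus at a RefSeq start inside these limits, chr2:121271272-121271407, was the same in all 4 lists. FGSCs gave a fold of 24.17 and 36.56 there and Dif-FGCs 11.43 and 8.74, so both FGSC values exceeded both Dif-FGC values. The other 5 Trp53bp1 loci were in 1 library each. Mdc1, a scaffold that binds phosphorylated H2AX, had 3, 3, 4 and 4 peaks. Its strongest locus, chr17:35850295-35851005, had fold 14.08, 17.36, 18.01 and 8.03, and a weaker one, chr17:35852415-35853888, had 6.37, 3.27, 3.80 and 3.70 in the same order. At both the states overlapped. A further Mdc1 locus was found in the Dif-FGC lists alone, chr17:35847323-35848665, with fold 5.31 and 4.86, and another in 3 libraries (11.76 in FGSC 1, 3.46 in FGSC 2, 3.01 in Dif-FGC 2). Rif1, which acts with 53BP1, had weak peaks in FGSC 2 (2.07 and 2.91) and Dif-FGC 1 (6.96).

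The Fanconi anaemia genes, whose products repair DNA crosslinks, had 20 peaks over 4 genes and none in all 4 libraries. Fancd2, which is ubiquitinated at the crosslink, had an FGSC locus, chr6:113533774-113533842, with fold 7.96 and 3.87. The other 6 Fancd2 loci were in 1 library each, 5 of them in Dif-FGC 1 with fold from 2.39 to 6.93. Fanci, the partner of Fancd2, had 6 loci and Fancm, a translocase, had 3, all in 1 library each. The strongest Fanci peak (FGSC 2, 11.33) lies outside the RefSeq limits of Fanci and inside Rlbp1. Fanca, a core complex subunit, had 1 peak each in FGSC 1 (9.53), FGSC 2 (3.15) and Dif-FGC 2 (6.93), at 3 different places.

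The RecQ helicases, which unwind recombination intermediates, shared no locus between libraries. Blm had 3 peaks in FGSC 1, with fold 3.40, 3.33 and 14.41, the last of them at its start. Wrn, at 151 kb the second longest of the genes, had 7 peaks in FGSC 2 with fold from 3.49 to 10.70 and 2 in Dif-FGC 1 with 5.39 and 5.02. In all, 14 of the 34 genes had no locus in more than 1 library. The same count was not made over all genes, and 54.7% of all loci were in 1 library.

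Of the end-joining genes, Xrcc6, which encodes the Ku70 subunit, had 2, 2, 3 and 3 peaks, and Xrcc5, which encodes Ku80, had 1 in FGSC 2 (3.37) and 1 in Dif-FGC 1 (4.64). The Xrcc6 locus chr15:82015882-82017198 had fold 17.01 and 68.24 in FGSCs, and 48.83 and 23.03 in Dif-FGCs. The replicates of FGSCs thus spanned both Dif-FGC values. This locus also overlaps Desi1, and the lists give no strand, so the 2 genes cannot be told apart there. A weaker Xrcc6 locus was in the Dif-FGC lists alone, chr15:82018981-82019093, with fold 10.22 and 3.45. Lig4, the ligase of this pathway, had no peak.

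The genes of single-strand break repair and ligation had the most peaks, 68 of the 229, and all 3 had peaks in every library: 19 and 15 in the FGSC lists, and 17 and 17 in the Dif-FGC lists. They also held 10 of the 15 loci in all 4 libraries. Lig1, the ligase that seals Okazaki fragments and repair nicks, had the most peaks of all members, 9, 7, 6 and 6. Its best peak by fold stood at 0.184%, 2.39%, 2.96% and 11.8% of the lists. Of its 9 loci 6 were in all 4 libraries.

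The strongest shared Lig1 locus was chr7:13280146-13280221, with fold 65.65 and 112.97 in FGSCs, and 74.08 and 26.85 in Dif-FGCs. The next, chr7:13282453-13282542, had 36.61, 32.16, 17.65 and 23.47 with the same limits in every list. At the first the states overlapped, and at the second both FGSC values were the higher. The other 4 were weaker, from 4.67 to 19.09, and at chr7:13286558-13286684 both Dif-FGC values (14.09 and 13.55) were above both FGSC values (8.52 and 5.75). A Lig1 locus in both FGSC lists alone, chr7:13300262-13300347, had fold 6.27 and 2.68.

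Among the 36 genes the highest fold of any peak was at a RefSeq start of Lig1, chr7:13278826-13278959, 469.80 in FGSC 1. This peak was in no other list, so no replicate bears on it. Its first 30 bases are shown with those of Msh6, the start with the most CNNCNNCNN runs, and of Trp53bp1 and Xrcc6, the other starts with a peak in all 4 libraries. The Xrcc6 start, chr15:82016369, lies inside the gene, whose lower limit is chr15:81987833, and the Trp53bp1 start also lies inside its gene. Capitals mark the cytidines of these runs.
Lig1, chr7:13278826-13278855, plus strand: gtCtCCgCCcCCtCCcgCcaaagtgcgcgc
Msh6, chr17:87975050-87975079, plus strand: gCgCCtCCtCCcgactttccCgcCagCggc
Xrcc6, chr15:82016369-82016398, plus strand: gttgtgcgtgatgacgCaaCgtCgctgatt
Trp53bp1, chr2:121271378-121271407, minus strand: gtgacgggaaaagggggagctcgcggccag
Within the first 50 transcribed bases Lig1 held 6 such runs, Msh6 7, Xrcc6 1 and Trp53bp1 none. C made up 42% of these bases at Msh6 and 20% at Trp53bp1, although both starts had a peak in every library. A run on the sense strand was found in 6 of the 13 start windows of the repair genes with a peak there, while 49.3% of 32851 RefSeq starts hold one in the same 50 bases and 78.6% hold one on either strand. Runs overlap each other, and a match is a description of the letters alone.

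**Figure D3:**
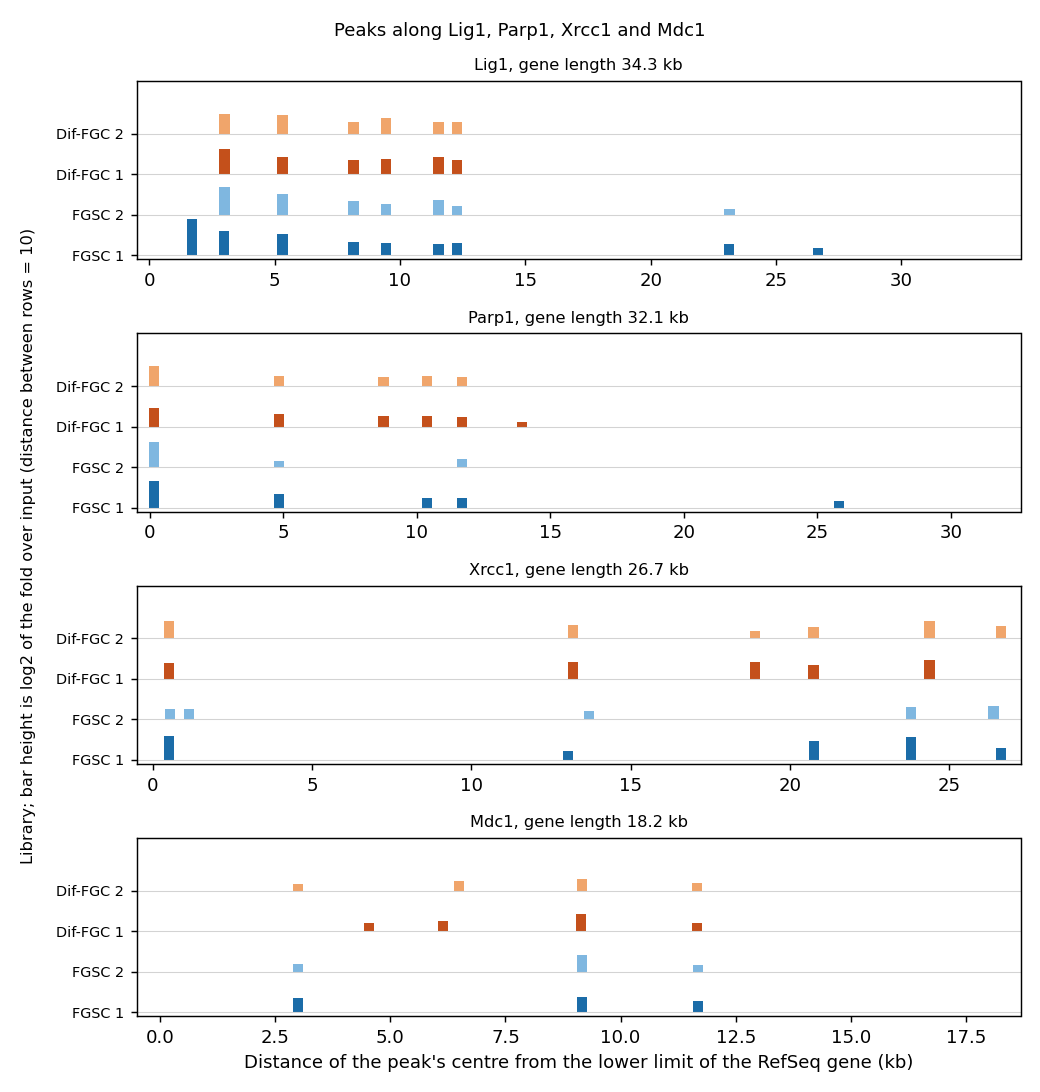
Peaks along Lig1, Parp1, Xrcc1 and Mdc1: distance of the peak's centre from the gene's lower RefSeq limit in kb (horizontal) and, for each of the 4 libraries, a bar whose height is log2 of the fold over input. Lig1 shows 6 loci in all 4 libraries and a tall bar in FGSC 1 alone, and Xrcc1 shows loci that only FGSC or only Dif-FGC libraries hold.

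Parp1, which encodes the sensor of DNA nicks, had 5, 3, 6 and 5 peaks. Its locus nearest the lower RefSeq limit, chr1:180568955-180569153, had fold 95.59 and 66.73 in FGSCs, and 24.50 and 29.13 in Dif-FGCs, with identical limits. Both FGSC values lay above both Dif-FGC values. Of its other loci, chr1:180573652-180573817 had fold 9.75, 2.78, 7.86 and 5.49 and chr1:180580533-180580635 had 5.31, 4.07, 5.22 and 4.63, with the states overlapping at both. A locus in the Dif-FGC lists alone, chr1:180577583-180577698, had 5.80 and 4.42.

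Xrcc1, the scaffold that PARP1 recruits to nicks, had 5, 5, 5 and 6 peaks at 10 loci, and more state-specific loci than any other member. Its locus near the lower limit, chr7:24547079-24547359, was in all lists with fold 54.51, 5.98, 15.05 and 18.80, where the FGSC replicates were the highest and the lowest. At the far end of the gene, chr7:24570449-24570578 was in both FGSC lists alone with fold 46.79 and 9.0. A neighbouring locus, chr7:24571015-24571151, was in both Dif-FGC lists alone with 27.06 and 18.58, and chr7:24565536-24565694 also, with 17.99 and 3.71. Replicates differed as well: 3 of the 10 loci were in 1 library only. The locus chr7:24567314-24567572 was in FGSC 1 (25.97) and both Dif-FGC lists (9.92 and 7.38) but not in FGSC 2. Xrcc1 thus kept its number of peaks, while places within it differed between replicates as well as between the states.

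The last group took in mismatch, transcription-coupled and post-replication repair, and its 3 genes had peaks in every library. Msh6, a mismatch recognition protein, had a locus at its start, chr17:87975050-87975405, with fold 10.85 and 13.66 in FGSCs, 9.25 and 19.04 in Dif-FGCs, and the same limits in all. The Dif-FGC values enclosed the FGSC values. Ercc6, which encodes the CSB protein of transcription-coupled repair, had 4, 2, 5 and 2 peaks and no locus in all 4. Its locus chr14:32526149-32526878 had fold 11.91 in FGSC 2, and 11.48 and 10.30 in the Dif-FGC lists. Rad18, the ligase that marks PCNA at stalled forks, had its strongest locus at its start, chr6:112696544-112696686, with 14.12, 5.12 and 8.15 in the same 3 libraries, where it overlaps Gm35824.

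At loci in all 4 libraries the fold could be compared between the states. For this comparison log2 fold was centred on the library's median over the 6160 such loci and fitted with limma. No locus of the series passed an adjusted p of 0.05 (0 of 6160, 0%; 559 had an unadjusted p under 0.05), and none of the 15 repair gene loci did. The labels do not say that the replicates were separate cultures, so these p-values measure only the spread between these libraries. The Parp1 locus chr1:180568955-180569153 differed by -1.48 (Dif-FGC minus FGSC, log2; SE 0.61, 95% interval from -2.81 to -0.15; limma adjusted p = 0.515). At the Trp53bp1 locus chr2:121271272-121271407 the difference was -1.47 (SE 0.66, from -2.90 to -0.04; limma adjusted p = 0.544). Both intervals left out 0, and neither difference was called after adjustment.

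Lig1 loci came next by size of p, and differed by 1.09 (SE 0.60, adjusted p = 0.605 in limma) at chr7:13286558-13286684, by 0.75 (SE 0.60, adjusted p = 0.718) at chr7:13289388-13289495 and by -0.85 (SE 0.71, adjusted p = 0.734) at chr7:13280146-13280221. Within Lig1 the loci therefore did not move one way. Over the 15 repair gene loci 7 differences were negative and 8 positive, and 2 had an unadjusted p under 0.05. At 5 of the 15 the centred values of the states did not overlap, beside 40.5% of all 6160 loci, so the repair genes did not exceed the background. The count of called loci in the series moved from 0 to 227 without FGSC 1, to 101 without FGSC 2 and to 1 without Dif-FGC 1, and none of the 5 loci named here was called in any of these fits.

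**Figure D4:**
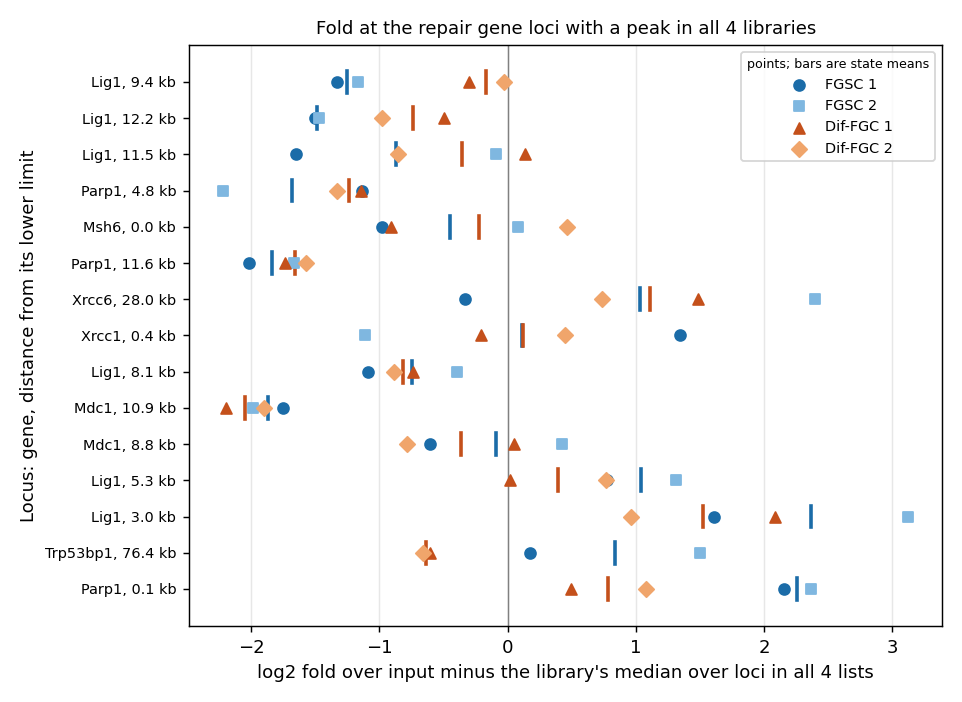
Log2 fold over input, centred on each library's median (horizontal), at the 15 repair gene loci with a peak in all 4 libraries (rows, named by gene and distance from its lower limit in kb); points are libraries and vertical bars are the means of the 2 libraries of a state. Rows run from the most negative Dif-FGC minus FGSC difference, Parp1 (-1.48) at the bottom, to the most positive, Lig1 (1.09) at the top.

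Of the repair genes with a peak, 27 have a start in the RefSeq promoter table used here, and 12 of them (44.4%) had a peak over the first 50 transcribed bases in some library, against 5306 of 8432 genes (62.9%). By library the counts were 8 of 19 and 6 of 21 for FGSCs, and 7 of 20 and 5 of 12 for Dif-FGCs. These are 42.1%, 28.6%, 35% and 41.7%, below the 56.1%, 57.6%, 55.3% and 63.5% of all genes with a peak in each list. The start peaks of Msh6, Trp53bp1 and Xrcc6 were in all 4 libraries and those of Blm, Brca1, Fanca, Lig1 and Topbp1 in 1.

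Among 162 further repair genes taken from textbook pathways, 129 had a peak (79.6%). Of these 51 (39.5%; all genes 43.5%) had peaks in all 4 libraries. Another 5 (3.88%; all genes 5.25%) had them in both FGSC libraries alone and 4 (3.1%; all genes 1.62%) in both Dif-FGC libraries alone. These shares were not tested. The FGSC genes were Rad51c and Exo1 of homologous recombination, Brcc3 of the BRCA1-A complex, Parp3, and C230052I12Rik, a synonym of Faap24. The Dif-FGC genes were Dclre1c, which encodes the Artemis nuclease, Uvssa, Primpol, and 2310003H01Rik, a synonym of Faap100. Of 22 genes of meiotic recombination among the 162, such as Dmc1 and Spo11, 6 had a peak (27.3%; all 162 genes 79.6%). None of these had peaks in all 4 libraries.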

How the data were processed

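Total RNA of FGSCs and Dif-FGCs was depleted of rRNA, fragmented to about 200 nt and immunoprecipitated with an ac4C antibody by the authors, and their processing notes name cutadapt, HISAT2, MACS2 and mm10 (no versions given in the sources used here). The deposited lists, 1 for each of 4 IP libraries called against input, give each peak a fold enrichment (a linear ratio), a score that rises as p falls, an FDR in percent as the authors' caller gave it, and a length in bp. No pooling of replicates is stated. Columns outside these 4 libraries numbered 0.

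Peaks were assigned by the authors' gene names, and overlapping peaks (at least 1 bp, without strand) were joined to loci. The highest fold of a library stood for a locus. Loci with a peak in all libraries were tested with limma 3.58.1 (R 4.3.3) on median-centred log2 fold, with Benjamini-Hochberg adjustment and a threshold of 0.05; the fit was tested on simulated data. Counting used Python 3.11.15 and pandas 2.3.3. Starts came from RefSeq (GRCm38.p6), where 7 of the 36 genes had no entry.

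The members and lists were chosen with earlier results of these data known. Values per library are given for genes and loci of 1 state alone, for the 8 shared loci with the best mean rank, for the 5 loci with the smallest p and for the gene with the most peaks; other values were added after they were seen. Alternatives were shorter lists, higher thresholds, other overlap and state rules, other scaling, the replicate number as a block and each library left out.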

Additional observations from a re-analysis of the deposited data

How the results depend on the processing

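The counts of repair genes and loci by state depended on the length of the lists and on single libraries. Genes in both FGSC libraries alone numbered 2 as reported, 1 with lists of equal length (13920 peaks each), 1 in the upper 50% by fold and 1 at a score of at least 100, and 8 where 1 library of a state was enough. With each library left out they ranged from 3 to 6. Loci of FGSCs alone numbered 5, then 3, 3 and 3 under these thresholds, 68 where 1 library was enough, and from 5 to 39 with a library left out. Genes of Dif-FGCs alone rose from 2 to 4 where 1 library was enough and ranged from 2 to 4 with a library left out, and their loci rose from 7 to 45 and ranged from 9 to 43. Loci in all 4 libraries fell from 15 to 7 in the upper 50% by fold. The cause was not tested, apart from the shorter lists and fewer libraries that these settings impose. The other 30 of these counts stayed within 1.5 times the reported ones.

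In the fit of fold, 0 of 6160 loci were called as reported, 5 after quantile normalization, 6 with the replicate number as a block, 4 with the crossed pairing (added after seeing the data), and from 0 to 227 with a library left out. Deviations of same-numbered libraries correlated at -0.12 across loci, so the numbers were not taken to pair the samples. The 5 named repair gene loci kept their direction and stayed uncalled in all 8 of these alternatives. With a library left out, the lone library of its state is assumed to vary like the other state. Depth is unknown, so no counting error could be given.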
